A study of Mus musculus with 6 samples.

Results

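The TALE homeobox cofactors examined here are 8 genes of the PBX, MEIS and PKNOX families, Pbx2, Pbx3, Pbx4, Meis1, Meis2, Meis3, Pknox1 and Pknox2, out of 30743 genes with a named row of array signals. The family was selected on the difference of Pbx3 between the genotypes in these same data, so the values of that contrast describe the members and support nothing beyond themselves. Each of the 8 members had 1 row paired with its symbol alone, and none was left out by a filter on low signals.

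RNA was profiled in mouse acute myeloid leukemia cells on 6 Affymetrix arrays, 3 from Ppara+/+ and 3 from Ppara-/- leukemia. The product of Ppara is a fatty-acid-sensing nuclear receptor. Marrow cells of either genotype, from mice backcrossed for 10 generations, had been infected with MSCV-MLL-AF9-IRES-GFP, a retrovirus carrying the MLL-AF9 fusion oncogene and green fluorescent protein, and transplanted. Both groups therefore carried the same fusion, and the RNA is from cells of secondary recipients' marrow that were sorted for GFP. Sex and age of the animals are not stated in the labels. Nor do they say whether replicates were separate animals or primary leukemias, so every error measures the spread between these samples.

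TALE proteins are homeodomain transcription factors named for a short loop inserted in the homeodomain. PBX proteins bind DNA together with HOX proteins and with MEIS or PKNOX proteins, and MEIS and PKNOX compete for the same surface of PBX and help to bring it into the nucleus. In MLL-rearranged leukemia the fusion keeps HOXA genes and Meis1 switched on, and PBX3 is known as a partner of HOXA9 and MEIS1 there.

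The signal is a log2 array intensity, which can be compared between arrays for 1 gene but not between genes, whose probes differ. The negative-control probe sets, which match no mouse transcript, had medians of 4.63 to 5.16 and 95th percentiles of 7.91 to 8.23 on the 6 arrays. Ppara+/+ replicate 1 and Ppara-/- replicate 2 stood apart with the highest negative-control medians, 5.16 and 4.99, against 4.63 to 4.81 on the other 4 arrays. Ppara itself had signals of 4.87, 5.19 and 5.18 in Ppara+/+ and 5.29, 5.05 and 5.23 in Ppara-/- cells. Those signals lay near the negative-control medians, and the probed part of the gene is not known here, so Ppara does not check the labels. Of 11 measured markers of leukemic and myeloid progenitor cells, Mpo, Elane, Cd33 and Itgam among them, none stayed under 7.91 on all arrays, whereas 9 of 9 T cell, 7 of 7 NK cell, 6 of 6 megakaryocyte, 8 of 9 B cell, 7 of 8 erythroid, 9 of 10 stromal and endothelial and 8 of 17 monocyte and macrophage markers did.

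Pbx3 was the 1 member that passed the test, and it was lower in Ppara-/- leukemia. Its signals were 7.74, 7.99 and 8.12 in the Ppara+/+ samples and 6.19, 6.33 and 6.32 in the Ppara-/- samples. All 3 Ppara-/- values lay below all 3 Ppara+/+ values, with a gap of over 1 log2 unit between the groups and little spread inside either. The means were 7.95 ± 0.19 and 6.28 ± 0.08 (SD, n = 3), a log2 difference of -1.67 (SE 0.12, 95% interval -1.95 to -1.39) or a 3.18-fold ratio of signals. No Pbx3 value of either genotype exceeded the negative-control 95th percentile of its array, and all 6 exceeded the negative-control median. Pbx3 held the 3rd smallest p of 30743 genes, and its difference was the 7th largest decrease (limma, adjusted p = 0.00438). Only 36 genes passed that fit, 0.117% of those tested, with 18 lower (0.0585%) and 18 higher (0.0585%) in Ppara-/- cells. The separation of the groups is less rare, since 8.74% of all genes had values that did not overlap between genotypes. In bulk RNA, a smaller share of cells with Pbx3 and less Pbx3 RNA per cell cannot be told apart.

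**Figure D1:**
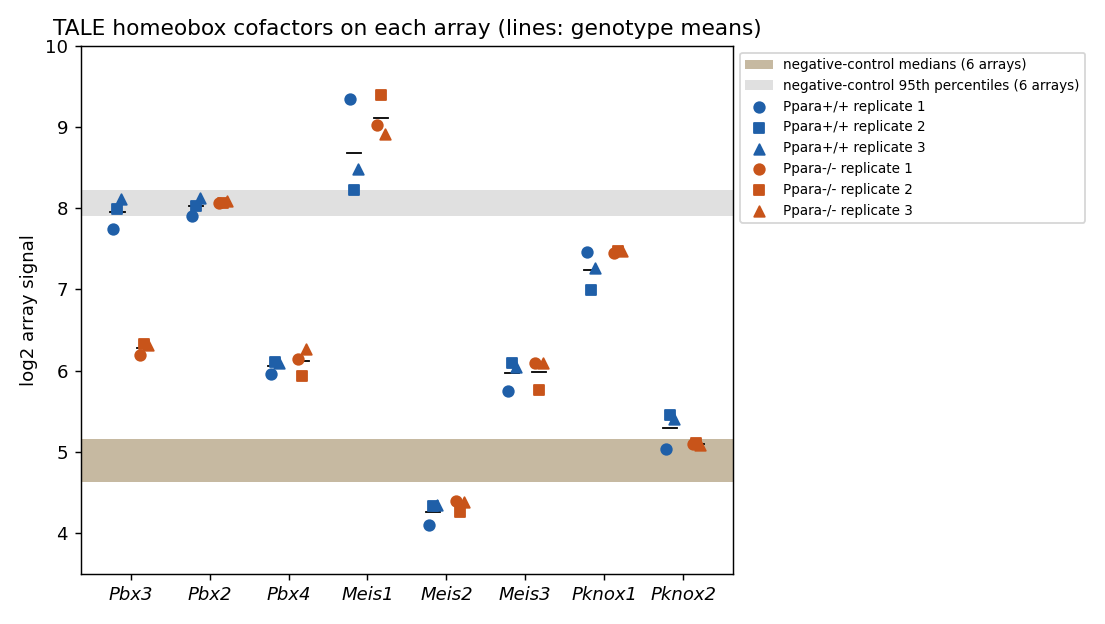
Log2 array signal (vertical axis) of the 8 TALE cofactors on each of the 6 arrays, blue for Ppara+/+ and orange for Ppara-/-, with 1 symbol per replicate number, a line at each genotype mean, and bands for the range of the negative-control medians (brown) and 95th percentiles (grey). Pbx3 separates into 7.74 to 8.12 and 6.19 to 6.33, while the genotypes overlap in the other 7 genes.

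The other PBX genes showed no such separation. Pbx2, a widely expressed PBX protein, had signals of 7.91, 8.03 and 8.13 in Ppara+/+ and 8.07, 8.07 and 8.09 in Ppara-/- cells. Its 6 values spanned 0.22 log2 units, against 1.93 for Pbx3, and the Ppara-/- values lay inside the Ppara+/+ range. The log2 difference of Pbx2 was 0.05 (SE 0.10, 95% interval -0.18 to 0.28), and its value exceeded the negative-control 95th percentile on 3 of the 6 arrays. Pbx4, the PBX gene best known from the testis, had 5.96, 6.11 and 6.10 in Ppara+/+ and 6.14, 5.94 and 6.27 in Ppara-/- cells. The groups overlapped, with a log2 difference of 0.06 (SE 0.12, 95% interval -0.21 to 0.33), and no Pbx4 value exceeded the negative-control 95th percentile of its array.

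Set against its paralogs within each array, Pbx3 differed between genotypes by slightly more than it did alone. The signal of Pbx3 minus the mean of Pbx2 and Pbx4, expressed relative to the Ppara+/+ mean, was -0.10, 0.01 and 0.10 in the Ppara+/+ samples. In the Ppara-/- samples it was -1.82, -1.59 and -1.77, so no Ppara-/- array came near a Ppara+/+ array. The genotype difference of this contrast was -1.73 (SD 0.13 in Ppara-/- and 0.10 in Ppara+/+, n = 3). Against each of the other 7 members in turn, the difference of Pbx3 stood at -1.47 (Pknox2) to -2.09 (Meis1). Those contrasts are descriptions without a test, because Pbx3 was chosen for its difference.

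Meis1, the HOXA9 cofactor that MLL fusions keep active, was the 1 member above the negative-control 95th percentile on all 6 arrays. It had signals of 9.35, 8.22 and 8.49 in Ppara+/+ and 9.03, 9.39 and 8.91 in Ppara-/- cells. The Ppara-/- values were close together and high, and Ppara+/+ replicate 1 was as high as they were, so the groups overlapped. The means were 8.69 ± 0.59 and 9.11 ± 0.25 (SD, n = 3), a log2 difference of 0.42 (SE 0.27, 95% interval -0.19 to 1.04). Without Ppara+/+ replicate 1 the difference was 0.76 (SE 0.16, limma adjusted p = 0.262), and without Ppara+/+ replicate 2 it was 0.19 (SE 0.25, limma adjusted p = 0.940). Neither fit nor the fit of all 6 arrays called Meis1, whose interval includes a rise of up to 1.04 log2 units.

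Meis2 and Meis3, relatives of Meis1 known mainly from other tissues, were dim. Meis2 lay between 4.10 and 4.39, under the negative-control median on all 6 arrays, and its log2 difference was 0.09 (SE 0.11). Meis3 had 5.75, 6.10 and 6.05 in Ppara+/+ and 6.10, 5.76 and 6.09 in Ppara-/- cells. Its difference was 0.02 (SE 0.14) and turned negative in 6 of 15 other fits of the same data. Pbx2 and Pbx4 had negative values in 2 of 15 each, none below -0.02. A change in genes this close to the negative controls could go unseen.

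Pknox1, which competes with MEIS proteins for PBX, had signals of 7.46, 6.99 and 7.26 in Ppara+/+ and 7.45, 7.47 and 7.47 in Ppara-/- cells. The Ppara-/- values were nearly identical, and Ppara+/+ replicate 1 again matched them. The log2 difference was 0.23 (SE 0.13, 95% interval -0.07 to 0.52), with 0.34 without Ppara+/+ replicate 1 and 0.10 without Ppara+/+ replicate 2. Pknox2, its relative, ran the other way, with 5.03, 5.46 and 5.40 in Ppara+/+ and 5.10, 5.11 and 5.09 in Ppara-/- cells. Its difference was -0.20 (SE 0.13, 95% interval -0.49 to 0.10), and 5 of its 6 values were above the negative-control median of their array. It was -0.33 without Ppara+/+ replicate 1 and -0.12 without Ppara+/+ replicate 2. Neither gene was called in any of the 15 other fits.

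Of the 8 members, then, 1 was called lower, none was called higher and 7 were not called, where 0.117% of all genes were called in either direction. Because the contrast chose the family, nothing is read from that count. The median log2 difference of the 8 members was 0.06, against 0.02 over all genes. Of the 8, 6 had a positive difference, where 57.1% of all genes did. The 6 arrays spanned 1.93 log2 units in Pbx3 and 1.17 in Meis1, against a median range of 0.41 over all genes. The range was 0.48 in Pknox1, 0.43 in Pknox2 and 0.22 to 0.35 in Pbx2, Pbx4, Meis2 and Meis3.

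**Figure D2:**
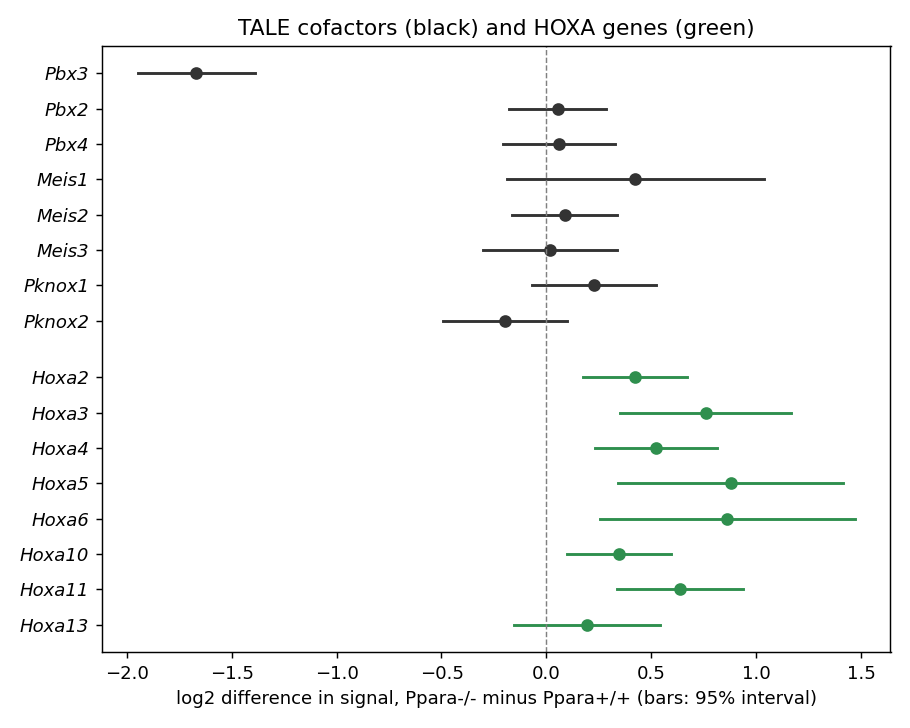
Log2 difference in signal, Ppara-/- minus Ppara+/+ (horizontal axis), with its 95% interval from limma (3 arrays per genotype), for the 8 TALE cofactors in black and the 8 measured HOXA genes in green. The interval of Pbx3 runs from -1.95 to -1.39, those of the other TALE cofactors include 0, and the HOXA points all lie above 0.

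The arrays that stood apart were also at the extremes for several members. Within each genotype, Pbx4, Meis2 and Meis3 were lowest where the negative-control median was highest (Ppara+/+ replicate 1, Ppara-/- replicate 2), and Meis1 was highest there. Pbx3 was lowest of its genotype on Ppara+/+ replicate 1 but not on Ppara-/- replicate 2. Without these arrays the difference of Pbx3 was -1.80 (SE 0.10, limma adjusted p = 0.0635) and that of Meis1 was 0.62 (SE 0.12, limma adjusted p = 0.313). In that fit limma called 0 of 30743 genes, with 2947 at an unadjusted p under 0.05. The difference of Pbx3 was negative in all 15 other fits, from -1.81 to -1.58, and it passed in 14, with an adjusted p of 0.000178 to 0.0497 in limma.

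**Figure D3:**
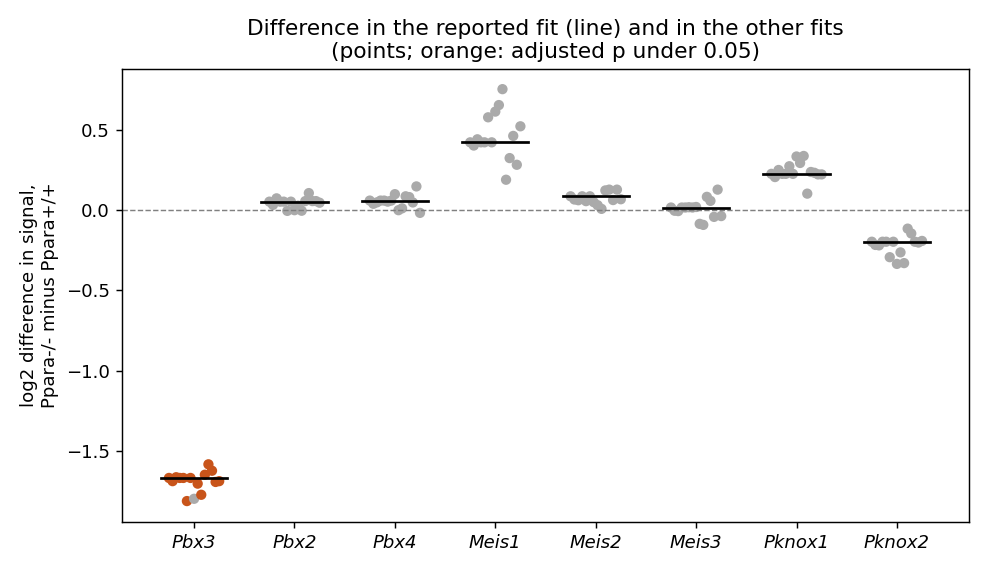
Log2 difference in signal, Ppara-/- minus Ppara+/+ (vertical axis), of each TALE cofactor in the reported fit (line) and in the other fits of these data (points), which change the processing or leave out arrays, with fits at an adjusted p under 0.05 in orange. Pbx3 stays between -1.81 and -1.58, and the points of Meis1 spread from 0.19 to 0.76.

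Of the HOX proteins that PBX and MEIS bind, the HOXA genes had signals that were higher in Ppara-/- cells without passing the test. Of 11 listed HOXA genes 8 were measured and none was called. All 8 had a positive difference, where 57.1% of all genes did. Their median log2 difference was 0.58, against 0.02 over all genes, and it stayed between 0.50 and 0.65 in the 15 other fits. In 7 of the 8 the genotypes did not overlap, where 8.74% of all genes were so separated. Hoxa11 was at 5.68 ± 0.11 against 5.05 ± 0.21 and Hoxa3 at 7.85 ± 0.10 against 7.09 ± 0.38 (Ppara-/- against Ppara+/+, SD, n = 3; limma adjusted p = 0.203 and 0.272). Hoxa4 differed by 0.52 (SE 0.13) and Hoxa2 by 0.42 (SE 0.11), with limma adjusted p = 0.308 and 0.345. Of the 8, 5 stayed under 7.91, the lowest negative-control 95th percentile, on every array, Hoxa2, Hoxa4 and Hoxa11 among them. No Hoxa3 value exceeded the negative-control 95th percentile of its array, whereas Hoxa6 exceeded it on 6 arrays and Hoxa5 on 5.

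Hoxa5 and Hoxa6, singled out after their values were seen, were high and low on the same Ppara+/+ arrays as Meis1. Hoxa5 had 9.07, 8.10 and 8.21 in Ppara+/+ and 9.25, 9.50 and 9.27 in Ppara-/- cells. Hoxa6 had 9.86, 8.86 and 8.79 in Ppara+/+ and 9.93, 10.27 and 9.90 in Ppara-/- cells. In both genes, as in Meis1, Ppara+/+ replicates 2 and 3 were low and Ppara+/+ replicate 1 was much nearer to the Ppara-/- samples. Ppara+/+ replicate 1 and Ppara-/- replicate 2, the arrays of highest negative-control median, were the highest of their genotype in each of these genes. Pearson's r with Meis1 over the 6 arrays was 0.90 for Hoxa5, 0.92 for Hoxa6 and 0.89 for Pknox1, and it was -0.92 for Pknox2. The other measured HOXA genes had lower values, 0.82 for Hoxa3, 0.51 for Hoxa2, 0.48 for Hoxa4 and Hoxa10, 0.17 for Hoxa11 and -0.50 for Hoxa13. The values share their arrays and the genotype split, and these coefficients are descriptions of 6 points.

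**Figure D4:**
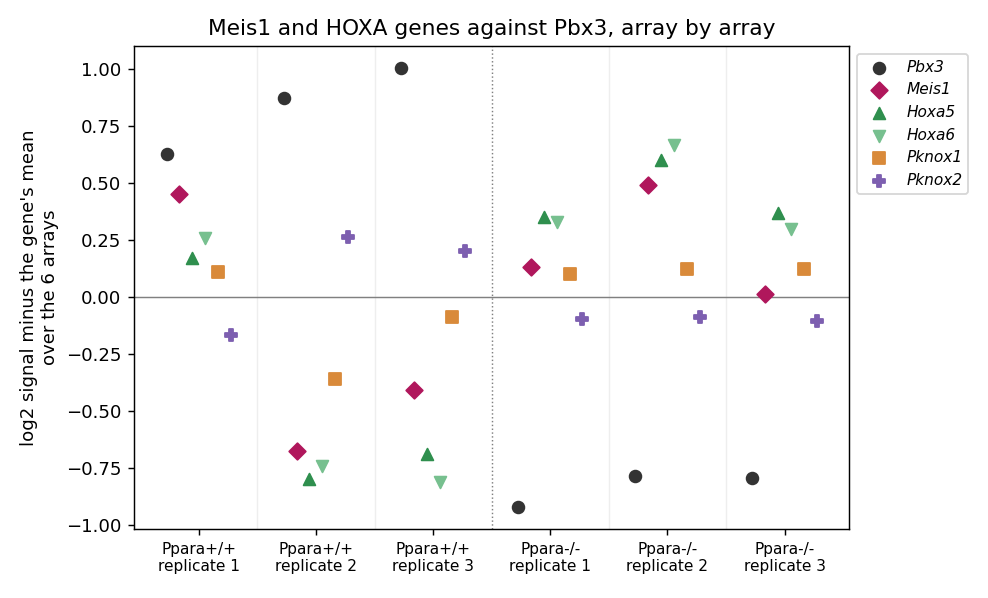
Log2 signal of 6 genes minus each gene's own mean over the 6 arrays (vertical axis), by array (horizontal axis, Ppara+/+ left and Ppara-/- right of the dotted line), with 1 symbol per gene. Meis1, Hoxa5, Hoxa6 and Pknox1 are low on Ppara+/+ replicates 2 and 3 and above their mean on the other 4 arrays, while Pbx3 is above its mean on all 3 Ppara+/+ arrays and below it on all 3 Ppara-/- arrays.

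The table of RefSeq promoter windows used here (GRCm38.p6) matched 5 of the 8 members by symbol, Pbx2, Pbx4, Meis1, Meis2 and Meis3, and the promoters of Pbx3, Pknox1 and Pknox2 were not searched. The 250 bases before each annotated start were searched on both strands for the composite PBX-HOX motif TGATTNAT, the MEIS and PKNOX motif TGACAG and the nuclear receptor half-site AGGTCA, which occur in 2.82%, 15.9% and 14% of all 32851 such windows. None of the 3 motifs was found in the windows of the 5 members. Of 10 HOXA windows from 9 genes, 1 held a PBX-HOX match, 2 a MEIS and PKNOX match and 0 a half-site. The window of Hoxa2 held 1 PBX-HOX match, starting 111 bases before the start on the opposite strand, and 1 MEIS and PKNOX match, starting 44 bases before it. The window of Hoxa3 held 1 MEIS and PKNOX match, starting 13 bases before it on the opposite strand. A match is only a match of letters, and its absence says nothing of the factor.

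The Meis1 window, from the member with the largest difference after Pbx3, and the Hoxa2 and Hoxa3 windows, where the motifs occur, read as follows, 5′ to 3′ on the strand of the gene, with the motif matches in capitals and no overlap between them. They lie at chr11:19018970-19019219, chr6:52164832-52165081 and chr6:52213068-52213317, all on the minus strand.
Meis1: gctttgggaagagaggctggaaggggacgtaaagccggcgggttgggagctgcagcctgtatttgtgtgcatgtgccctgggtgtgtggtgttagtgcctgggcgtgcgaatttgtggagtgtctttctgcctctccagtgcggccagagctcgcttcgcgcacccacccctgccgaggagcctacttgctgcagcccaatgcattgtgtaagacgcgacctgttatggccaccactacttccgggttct
Hoxa2: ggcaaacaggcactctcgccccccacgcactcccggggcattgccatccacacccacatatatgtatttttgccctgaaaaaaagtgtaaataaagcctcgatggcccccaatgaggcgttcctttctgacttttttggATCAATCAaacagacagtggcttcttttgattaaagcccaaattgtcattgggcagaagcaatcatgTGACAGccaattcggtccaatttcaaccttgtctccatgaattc
Hoxa3: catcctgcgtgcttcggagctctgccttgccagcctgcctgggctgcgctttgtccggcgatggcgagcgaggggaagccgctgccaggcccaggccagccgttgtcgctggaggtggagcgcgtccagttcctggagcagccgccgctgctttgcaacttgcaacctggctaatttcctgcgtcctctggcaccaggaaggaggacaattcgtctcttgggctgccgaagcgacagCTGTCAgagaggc

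The HOXB, HOXC and HOXD genes had differences in both directions. Of 28 listed genes 25 were measured, none was called, and the median log2 difference was 0.09. Of the 25, 17 had a positive and 8 a negative difference, where 57.1% of all genes had a positive one. Hoxb2 had 6.13, 6.93 and 6.56 in Ppara+/+ and 5.75, 5.59 and 5.56 in Ppara-/- cells, a difference of -0.91 (SE 0.19, limma adjusted p = 0.203). Hoxb5 differed by -0.48 (SE 0.15) and Hoxb3 by -0.37 (SE 0.18), with limma adjusted p = 0.544 and 0.943, and Hoxd13 by 0.23 (SE 0.12). All 25 stayed under 7.91, the lowest negative-control 95th percentile, on every array.

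Other TALE genes, the IRX, TGIF and MKX genes, which do not carry the PBX partner role of MEIS, were dim as well. All 9 measured genes stayed under 7.91, none was called, and the median difference was 0.13. Of the 9, 8 had a positive difference, where 57.1% of all genes did. The largest was that of Irx5, 0.33 (SE 0.23), whose groups overlapped. The list's median was -0.04 without Ppara+/+ replicate 1 and positive in the other 14 fits.

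Proteins that bind PBX, MEIS or PKNOX, among them corepressors, acetyltransferases and CREB coactivators, had a median difference of 0.00 over 13 measured of 16 listed genes, and none was called. Crtc3, a CREB coactivator of the family that MEIS1 engages, had 8.61, 8.75 and 8.76 in Ppara+/+ and 8.12, 8.24 and 8.13 in Ppara-/- cells. The groups did not overlap, and the difference of -0.54 (SE 0.10) missed the threshold (limma adjusted p = 0.142) and passed in 1 of 15 other fits. Pbxip1, a PBX-interacting protein that keeps PBX from its sites, differed by 0.21 (SE 0.10), the corepressor Sin3b by 0.18 (SE 0.11) and the acetyltransferase Ep300 by -0.17 (SE 0.13), none of them called.

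Among genes linked to HOXA9, MEIS1 and PBX3 in leukemia, 30 of 33 listed were measured, with a median difference of 0.07. Of the 30, 1 was called higher, where 0.0585% of all genes were, none lower and 29 were not called. The gene that rose was Mecom, a zinc finger factor of hematopoietic stem cells, which had 4.89, 5.17 and 5.80 in Ppara+/+ and 7.31, 7.56 and 7.59 in Ppara-/- cells (log2 difference 2.20, SE 0.21; limma adjusted p = 0.0145). It was called in 10 of 15 other fits. No Mecom value exceeded the negative-control 95th percentile of its array, and 5 of 6 exceeded the negative-control median. The Kit receptor, a progenitor marker, differed by 0.54 (SE 0.17) and the transcriptional repressor Gfi1 by 0.50 (SE 0.10), both not called (limma adjusted p = 0.547 and 0.198). Cd34 had 8.22, 8.37 and 8.41 in Ppara+/+ and 7.89, 6.50 and 7.99 in Ppara-/- cells, where Ppara-/- replicate 2 was far below the others, and Lcn2 differed by -0.30 (SE 0.12), neither of them called.

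The machinery of the MLL fusion, which acts upstream of Meis1 and the HOXA genes, showed small differences. Of 21 listed genes 19 were measured, none was called, and the median was 0.05. Of the 19, 14 had a positive difference, where 57.1% of all genes did. Kmt2a, which encodes MLL itself, was at 9.19 ± 0.10 against 8.89 ± 0.16 (SD, n = 3; limma adjusted p = 0.784), and the fusion partners and elongation factors Ell2, Aff1 and Mllt10 differed by 0.19, 0.16 and -0.17, with overlapping groups.

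Markers of monocytes and macrophages had mostly lower signals in Ppara-/- samples, as Pbx3 did. Of 17 measured of 18 listed, 14 had a negative difference, with a median of -0.28, and 2 were called lower, Vcam1 and Clec4a1. Over all genes, 57.1% had a positive difference and 0.0585% were called lower. The summed log2 signal of the 17 markers was 139.49 to 142.59 in Ppara+/+ and 129.66 to 132.95 in Ppara-/- samples, without overlap. Of the 17, 8 stayed under 7.91 on all arrays, Vcam1, Clec4a1, C1qa and Mrc1 among them. Others were brighter, such as Cd68, at 8.98 ± 0.19 in Ppara-/- against 9.70 ± 0.14 in Ppara+/+ samples (SD, n = 3). In the same order, Fn1 was at 7.86 against 9.87, Ctss at 7.93 against 9.32, Csf1r at 8.35 against 9.28 and Adgre1 at 7.92 against 8.58 (means, n = 3). None of these was called. In 9 of the 17 markers the genotypes did not overlap, where 8.74% of all genes were so separated. The shift was uneven among bright markers, as Ly6c2, Lyz2 and Cybb differed by only -0.13, -0.21 and -0.23. Cd14 differed by 0.23 (SE 0.18) and was 1 of 3 markers with a positive difference. The part of this shift in the difference of Pbx3 was not tested.

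The genes whose pattern was most like that of Pbx3 were sought among 757 others whose signals spanned at least 1 log2 unit over the 6 arrays. The 6 nearest by Pearson's r were the carbonic anhydrase Car2 (0.99), the antisense transcript Junos (0.99), the germ cell gene Tex14 (0.98), the tyrosine phosphatase Ptprr (0.97), the restriction factor Apobec3 (0.97) and the sialic acid receptor Siglece (0.97). All 6 separate the genotypes as Pbx3 does, which the choice of Pbx3 favours. The 6 nearest to Meis1 were the signal transducer Stat4 (0.99), the guanylate-binding protein Gbp7 (0.95), the interleukin receptor Il1rl2 (0.95), the mast cell and basophil protease Mcpt8 (0.94), the scaffold protein Erbin (0.94) and the mannosidase Man1a (0.93). Stat4 had 7.46, 6.10 and 6.49 in Ppara+/+ and 7.21, 7.51 and 7.06 in Ppara-/- cells, the same order of high and low arrays as Meis1 in Ppara+/+ and in Ppara-/- cells, and none of the 6 was called between genotypes. In each of the 6, as in Meis1, Ppara+/+ replicate 1 and Ppara-/- replicate 2 were the highest of their genotype. Those are the arrays of highest negative-control median.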

How the data were processed

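RNA of 6 samples of sorted mouse leukemia cells was measured on Affymetrix arrays, and groups and replicate numbers come from the sample titles. The values deposited by the authors are log2 signals per probe set, and RMA and limma are named for them, without versions, per the submitters' processing notes. RMA's quantile step would remove a shift shared by most genes. The genome build is not given in the sources used here.

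Of 72688 rows, 6732 were controls. A platform annotation paired 31216 rows with 1 gene, 1534 with several (not used) and left 33206 unnamed here. RefSeq's GRCm38.p6 table gave current symbols by gene ID. Each of the 30743 genes was represented by its row of highest mean.

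All genes were fitted in R 4.3.3 by limma 3.58.1, using lmFit with eBayes (two-sided, no covariates, no filter), with Benjamini-Hochberg adjustment and a threshold of 0.05. The fit was tested on simulated data. Python 3.11.15, matplotlib 3.10.9 and pandas 2.3.3 made the tables and plots. The number of arrays limits the precision.

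The members, the lists and the markers were chosen with earlier results of these data known. The members are all named. From each other list the text names the genes past the threshold and up to 4 with the smallest p. Likeness was ranked by Pearson's r over 6 arrays, without gene models, olfactory or vomeronasal genes and noncoding RNA families. The alternatives were another prior, 2 normalizations, a filter on dim genes, the mean of a gene's rows, weights per array, a block for the replicate number, the negative-control median as a covariate, and fits with 1 array or the 2 arrays of high negative-control signal left out.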

Additional observations from a re-analysis of the deposited data

How the results depend on the processing

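The direction of the difference of Pbx3 was kept in all 15 other fits. With 1 array left out it ranged from -1.77 to -1.58, and Pbx3 was the 1 member called each time. Without the 2 arrays of high negative-control signal it was -1.80, the adjusted p rose to 0.0635 with 2 arrays per group, 0 members and 0 genes were called by limma (2947 genes at an unadjusted p under 0.05), and Pbx3 minus the mean of its paralogs was -1.85 rather than -1.73. The count of called genes, 36 in the reported fit, was 69 with a trended and robust prior, 13 with median centring (7 higher and 6 lower), 22 with quantile normalization repeated (9 higher and 13 lower), 277 with array weights (130 higher and 147 lower) and 6 to 36 with 1 array left out. The causes of these changes were not tested. With the replicate number as a block it was 12 (4 higher and 8 lower), with Pbx3 at -1.67 and still the 1 member called. Deviations of same-numbered samples correlated at -0.33, -0.47 and 0.11. The largest correlation between genotypes, 0.50, joined Ppara+/+ replicate 1 and Ppara-/- replicate 2, the arrays of high negative-control signal. Because these values also follow the background of the arrays, they cannot tell whether same-numbered samples were handled together. The labels do not say either. Signal over background limits all members but Meis1. Pbx2 exceeded the negative-control 95th percentile of the array on only 3 of 6 arrays, and the members other than Meis1 and Pbx2 exceeded it on none.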
